A study of Mus musculus with 12 samples.

Results

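The genes described are 10 serotonin receptor genes of the mouse, Htr1a, Htr1b, Htr1d, Htr2a, Htr2c, Htr3a, Htr4, Htr5a, Htr6 and Htr7, measured by RNA sequencing in ventral CA1 of brain slices. They were chosen by gene symbol, and all 10 were found among the 55471 gene IDs of the count table. All 10 also passed the filter on low counts, which left 19492 genes in the tests. The 4 other receptor genes of the family, Htr1f, Htr2b, Htr3b and Htr5b, are given for comparison.

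The tissue came from wild-type male C57BL/6J mice aged 5 to 7 weeks. In the STET group, slices received strong tetanization, which was 3 trains of 100 pulses at 100 Hz, a protocol for late long-term potentiation. In the STET_S100 and STET_S200 groups, the same tetanization was joined by electrical stimulation of the basolateral amygdala, at 100 Hz in STET_S100 and 200 Hz in STET_S200. The label of STET_S200 also mentions pulses at 100 Hz, so its rate is stated in conflicting ways. In the Control group, slices received basal test stimulation only, with no tetanus and no amygdala stimulation. Each group had 3 libraries, each a pool of 6 slices of 400 µm from which 1 mm2 around the electrodes was taken 30 min after stimulation. All slices had been kept in vitro for at least 3 h, and each mouse gave 4 slices, 1 to each group. A pool of 6 slices can hide differences between slices, and with mice shared between groups the 12 libraries may not be fully independent.

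Serotonin reaches the hippocampus through axons of the raphe nuclei and acts there on a large family of receptors. The proteins of Htr1a, Htr1b, Htr1d and Htr5a couple to inhibitory Gi/o proteins, which lower cyclic AMP and, for Htr1a in CA1 pyramidal cells, open GIRK potassium channels. Those of Htr2a and Htr2c couple to Gq and phospholipase C, and those of Htr4, Htr6 and Htr7 to Gs and adenylyl cyclase. Htr3a encodes the subunit that every serotonin-gated cation channel needs, and in the forebrain it marks a class of interneurons. Htr2c mRNA is also very abundant in the choroid plexus, the epithelium that makes cerebrospinal fluid and that lies against the hippocampus in the ventricle.

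The libraries held between 36.3 M and 52.8 M counted reads. The CA1 markers Fibcd1, Mpped1 and Wfs1 averaged 366, 350 and 83.1 CPM (read counts scaled to an adjusted library total, so that libraries compare), and Arc, an activity-regulated gene, served as the check of stimulation. Arc averaged 258 ± 57.9 CPM in STET, 270 ± 117 CPM in STET_S100, 228 ± 43.6 CPM in STET_S200 and 96.7 ± 17.6 CPM in Control (SD, n = 3 each), and every stimulated library lay above every Control library. Arc nevertheless did not pass in the edgeR quasi-likelihood test, with log2 fold changes against Control of 1.42 ± 0.33 in STET, 1.48 ± 0.33 in STET_S100 and 1.24 ± 0.33 in STET_S200 and adjusted p-values of 1.00, 0.902 and 0.786. The libraries differed in other tissue. The choroid plexus list of 14 genes summed to 460 to 3419 CPM in STET, 117 to 4248 CPM in STET_S100, 87.9 to 163 CPM in STET_S200 and 388 to 1973 CPM in Control. Fabp4, a gene of fat cells, stood at 7.08 to 8.46 CPM in 5 libraries, against 0.0479 to 0.275 CPM in the other 7. The 5 were STET 3, STET_S100 1, STET_S200 2, STET_S200 3 and Control 3. Alb, also listed for peripheral tissue, stood at 7.49 to 8.47 CPM in these libraries except STET 3, where it was at 0.0868 CPM. Umod, of the same list, had 0.718 CPM in Control 1, 0.382 CPM in Control 2 and 0.477 CPM in STET 3. The 7 libraries low in Fabp4 were thus not all free of such genes. Markers of serotonin neurons were near 0, with Tph2 at 0.534 CPM, Slc6a4 at 0.146 CPM and Fev at 0.00724 CPM on average.

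Upstream windows of the receptor genes were read from RefSeq (GRCm38.p6, 250 bases before to 50 after each start site), which held 10 windows for 8 of the 10 genes. They were searched on both strands for a motif of activity-regulated transcription and for a general promoter box. The cyclic AMP response element TGACGTCA was in none of the 10 windows, against 1.79% of 32851 windows of all genes. The CCAAT box, searched as CCAAT, was in 3 windows, those of Htr1b, Htr1d and Htr2c, against 37.4%. The upstream 250 bases of Htr2c are given as those of the most abundant receptor mRNA. They lie at chrX:146962263-146962512 (plus strand), and the capitals mark the CCAAT box in bases 171 to 175, on the opposite strand.
Htr2c: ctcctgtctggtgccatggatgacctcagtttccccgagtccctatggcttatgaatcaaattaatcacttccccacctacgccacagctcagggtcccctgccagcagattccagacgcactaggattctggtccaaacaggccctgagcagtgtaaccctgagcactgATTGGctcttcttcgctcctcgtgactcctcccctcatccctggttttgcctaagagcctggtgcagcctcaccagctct
These matches are letters in a window and were not tested for binding. The levels of Htr2c in each library are given with those of Ttr.

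Levels per length of exon (RPKM) were first compared over all 12 libraries, to order the family in this tissue. Htr2c was the highest, at 9.38 ± 1.04 RPKM, followed by Htr3a at 7.60 ± 0.77 RPKM and Htr1a at 5.71 ± 0.36 RPKM (SD, n = 12). Htr2c exceeded Htr3a in 11 of 12 libraries, and Htr3a exceeded Htr1a in 12 of 12. The ionotropic subunit, the main Gq receptor and the main somatodendritic Gi receptor were thus the leading mRNAs, with 21.6%, 17.6% and 13.2% of the family's summed RPKM for Htr2c, Htr3a and Htr1a. Htr5a, a Gi-coupled receptor, stood at 4.20 ± 0.30 RPKM. Its relative Htr5b, which is a pseudogene in humans, stood at 4.33 ± 0.63 RPKM and was above Htr5a in 7 of 12 libraries, so the order of this pair was within their spread.

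A middle tier held Htr2a at 2.77 ± 0.43 RPKM, Htr7 at 2.75 ± 0.40 RPKM and Htr6 at 2.31 ± 0.26 RPKM. Htr2a was above Htr7 in 6 of 12 libraries and Htr7 was above Htr6 in 10 of 12, so neither neighbouring pair separated. Htr6 was above Htr4 in all 12 libraries with no overlap. Htr4 and Htr1b, a Gs receptor and a receptor mostly of axon terminals, followed at 1.75 ± 0.16 and 1.67 ± 0.25 RPKM and changed places in 5 of 12 libraries. Htr1d, a close relative of Htr1b, was the lowest of the 10, at 0.518 ± 0.069 RPKM, below Htr1b in every library. Of the genes outside the 10, Htr1f stood at 0.265 RPKM, Htr2b at 0.0540 RPKM and Htr3b, the second channel subunit, at 0.00992 RPKM, with 60 and 12 reads in all 12 libraries for Htr2b and Htr3b. With the length of the longest coding transcript in place of all exons, a length chosen after seeing the data, Htr2c moved to 17.9 RPKM, and Htr7 passed Htr2a with 3.04 against 2.77 RPKM. No other place in the order changed.

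**Figure D1:**
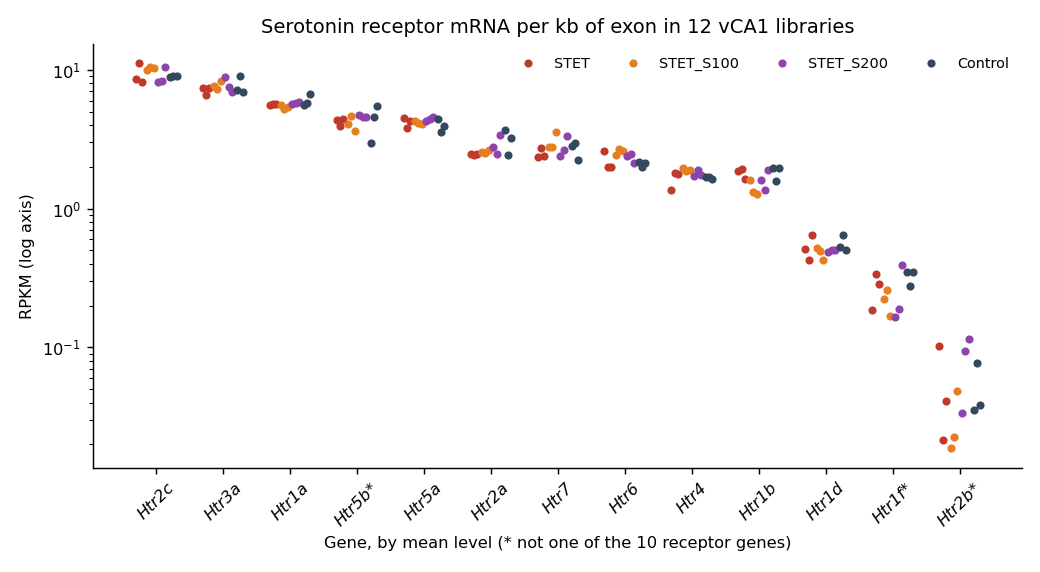
Level of each serotonin receptor mRNA in RPKM (log axis) in each of the 12 libraries, with genes ordered by their mean and groups by colour; Htr3b, at 0 in some libraries, is not drawn. Htr2c, Htr3a and Htr1a lead, Htr1d is the lowest of the 10, and the 4 groups lie over each other within most genes.

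Pooled over the 4 groups, the libraries of a group agreed most closely for Htr1a. Its coefficient of variation within groups was 5.49%, against 3.00% from counting alone. Htr5a at 6.88% and Htr4 at 7.72% were also steady. The widest were Htr7 at 14.4%, Htr2a at 14.3%, Htr1d at 13.9% and Htr1b at 12.7%. Counting alone gave 11.8% for Htr1d, close to its whole spread. It gave 1.62% for Htr2c, whose spread was 11.3%. These pooled values hide unequal groups. Htr1a had an SD of 0.190 CPM on a mean of 25.3 CPM in STET and 2.67 CPM on 27.0 CPM in Control. In Control the libraries agreed more closely for Htr2c, with an SD of 0.764 CPM on 83.9 CPM.

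No receptor gene passed the test in any of the 7 comparisons, namely STET, STET_S100 and STET_S200 each set against Control, the same 3 groups set against each other, and their average set against Control. The test was edgeR's quasi-likelihood F test with Benjamini-Hochberg adjustment over 19492 genes at 0.05, and the share of all genes called was 0% in each comparison. The smallest adjusted p of a receptor gene ran from 0.828 in STET_S200 against Control to 1.00 in STET against Control and in STET_S100 against STET. DESeq2 and limma-voom likewise called 0 of the 10 in each comparison. Over all genes DESeq2 called 1 to 16 per comparison and limma-voom called 0. Log2 fold changes of the 10 genes stayed between -0.38 and 0.30 in all 7 comparisons. Their 95% intervals all lay inside a 2-fold change in either direction, and those of 8 to 10 of the 10 genes, depending on the comparison, lay inside a 1.5-fold change.

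**Figure D2:**
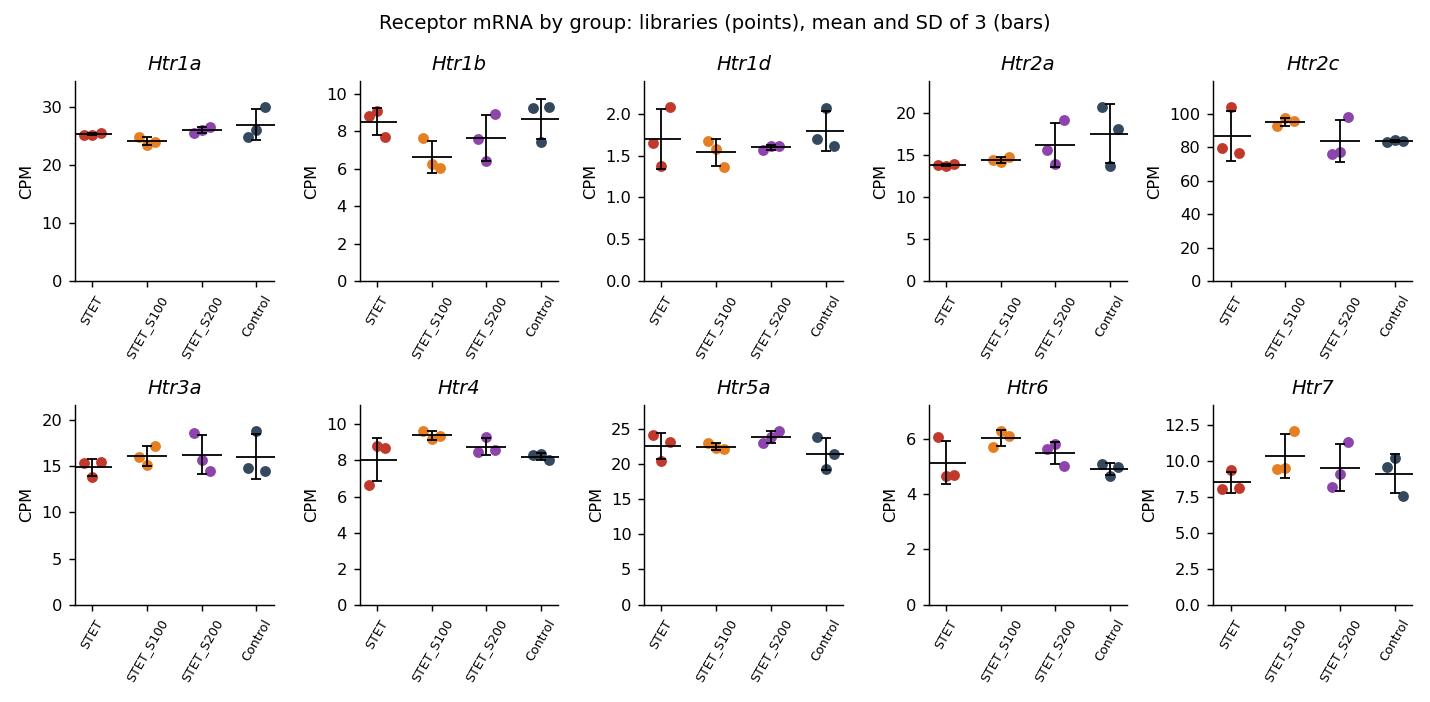
CPM of the 10 receptor genes in each library (points) with the mean and SD of the 3 libraries of a group (bars), for STET, STET_S100, STET_S200 and Control. The STET_S100 libraries lie above all Control libraries for Htr2c, Htr4 and Htr6, and below all STET libraries for Htr1a and Htr1b, while the groups overlap in most other panels.

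STET against Control asks what tetanization alone left at 30 min. Of the 10 genes 3 had a positive and 7 a negative log2 fold change, with a median of -0.05, against 0.00 over all genes tested. The median size was 0.07, against 0.06 over all genes. At an unadjusted p under 0.05 there was 1 gene of 10, Htr2a, where 3.5% of all genes were under it. No receptor gene separated the groups, where 8.89% of all genes did.

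Htr2a encodes the Gq receptor that is the target of classical psychedelics. It had 13.8, 13.8 and 14.0 CPM in the STET libraries, against 20.7, 13.7 and 18.1 CPM in the Control libraries. The STET libraries were nearly equal, and Control 2 lay at their level while the other Control libraries were higher. The log2 fold change was -0.35 ± 0.13 (SE; adjusted p = 1.00, edgeR quasi-likelihood test). Without Control 1 it was -0.20 with an unadjusted p of 0.124 in that fit, and without Control 2 it was -0.49. The other 9 genes lay between -0.10 for Htr3a and Htr7 and 0.07 for Htr5a and Htr6.

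STET_S100 against Control gave the widest differences of the 3 stimulated groups. Here 6 of 10 log2 fold changes were positive, with a median of 0.04 and a median size of 0.19, against 0.08 over all genes. At an unadjusted p under 0.05 there were 4 genes of 10, against 5.16% of all genes, and 3 genes of 10 had groups that did not overlap, against 10.1%. None passed after adjustment, and all adjusted p-values of the 10 genes were at or above 0.902 (edgeR quasi-likelihood test).

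Of the 4 Gi-coupled genes, Htr1a, Htr1b and Htr1d had negative log2 fold changes and Htr5a a positive one of 0.06 ± 0.08, and none passed. Htr1b, whose protein restrains transmitter release at axon terminals, had 7.63, 6.25 and 6.06 CPM in STET_S100, against 9.26, 7.42 and 9.29 CPM in Control. STET_S100 1 exceeded Control 2, so the groups overlapped. The log2 fold change was -0.38 ± 0.13, with an unadjusted p of 0.00909 and an adjusted p of 0.902 in the edgeR quasi-likelihood test. In all 22 alternatives it lay between -0.50 and -0.32. The markers of subiculum and cortex summed to 169 to 186 CPM in STET_S100 and 186 to 213 CPM in Control, and their part in the Htr1b difference was not tested.

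Htr1a had 24.9, 23.5 and 24.0 CPM in STET_S100, against 24.9, 26.1 and 30.0 CPM in Control. The top of STET_S100 met the bottom of Control, and Control 3 stood above the rest. The log2 fold change was -0.16 ± 0.06, and without Control 3 it was -0.08. Htr1d, the scarce relative of Htr1b, differed by -0.22 ± 0.18, with a 95% interval of 0.658-fold to 1.12-fold, and by -0.11 without Control 2.

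Htr2a was on the same side as in STET, with 14.4, 14.1 and 14.7 CPM in STET_S100 and a log2 fold change of -0.29 ± 0.13 against the same Control libraries. Without Control 1 it was -0.14 with an unadjusted p of 0.262 in that fit, and the unadjusted p was under 0.05 in 9 of 22 alternatives. The other Gq gene, Htr2c, was on the opposite side. It had 92.9, 97.4 and 95.7 CPM in STET_S100, against 83.2, 84.7 and 83.7 CPM in Control, with every STET_S100 library higher. The log2 fold change was 0.18 ± 0.12, with a 95% interval of 0.937-fold to 1.38-fold, where the fit takes its spread from all 4 groups.

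The Gs-coupled genes Htr4, Htr6 and Htr7 all had positive log2 fold changes. Htr6, a receptor found mostly on neuronal cilia, had 5.72, 6.30 and 6.12 CPM in STET_S100, against 5.10, 4.66 and 4.97 CPM in Control, with no overlap. Its log2 fold change was 0.30 ± 0.12, with an unadjusted p of 0.0224 and an adjusted p of 0.902 in the edgeR quasi-likelihood test. Htr4, whose agonists raise excitability of CA1 pyramidal cells, had 9.65, 9.17 and 9.38 CPM in STET_S100, against 8.28, 8.35 and 8.01 CPM in Control, again with no overlap. Its log2 fold change was 0.19 ± 0.10. Htr7 had 9.41, 9.50 and 12.1 CPM in STET_S100, against 9.59, 10.1 and 7.57 CPM in Control, and the groups overlapped. Its log2 fold change was 0.18 ± 0.14, and without STET_S100 3 it was 0.05. The channel subunit gene Htr3a differed by 0.01 ± 0.11.

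STET_S200 against Control held smaller differences. The log2 fold changes ran from -0.18 for Htr1b, or -0.07 without STET_S200 2, to 0.16 for Htr6, with a median of 0.01 and a median size of 0.11, against 0.08 over all genes. No receptor gene had an unadjusted p under 0.05, where 5.92% of all genes did, and 1 of 10, Htr4, had groups that did not overlap, against 11%. Htr4 had 8.46, 9.30 and 8.56 CPM in STET_S200, all above the Control libraries, with a log2 fold change of 0.10 ± 0.10, which was 0.05 without STET_S200 2. Htr5a, a Gi-coupled receptor, had 23.0, 23.8 and 24.7 CPM in STET_S200, against 23.8, 19.2 and 21.3 CPM in Control. Its log2 fold change of 0.15 ± 0.08 had the smallest adjusted p of the 10, 0.828 (edgeR quasi-likelihood test). It was 0.07 without Control 2 and 0.23 without Control 1. For Htr2a the groups overlapped widely, with 15.6, 13.9 and 19.1 CPM in STET_S200.

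**Figure D3:**
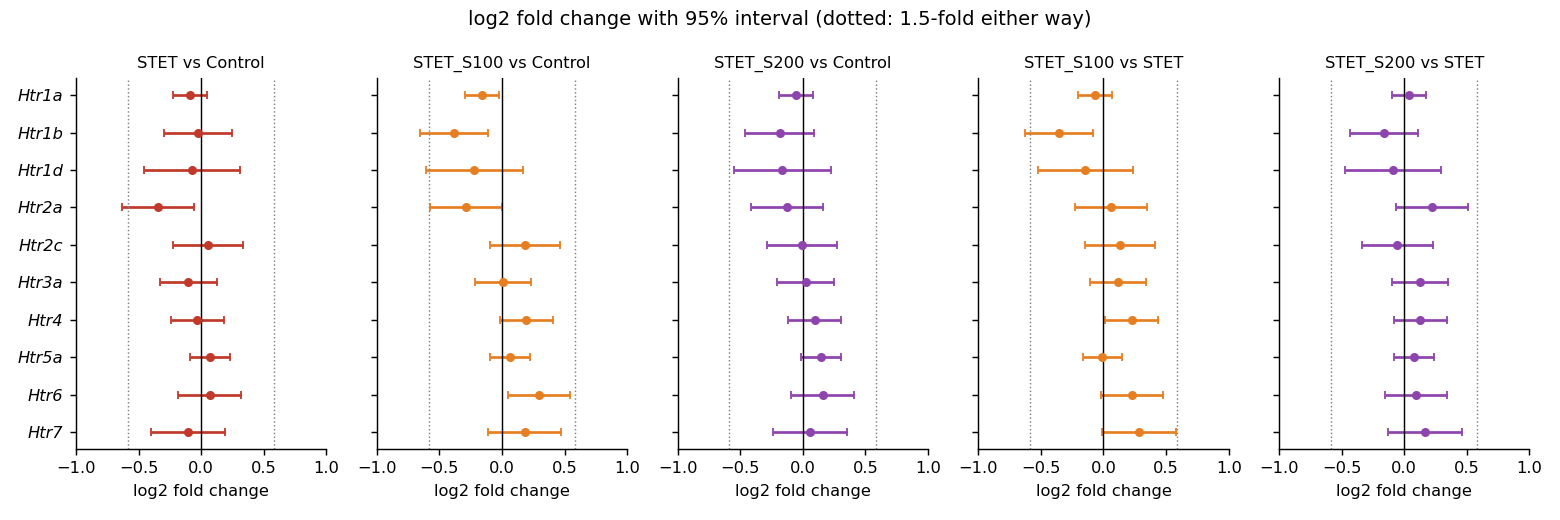
Log2 fold change of each receptor gene (points) with its 95% interval from the edgeR fit (bars) in 5 comparisons, with dotted lines at a 1.5-fold change either way. Intervals clear of 0 appear for Htr2a in STET against Control, for Htr1a, Htr1b, Htr2a and Htr6 in STET_S100 against Control, and for Htr1b and Htr4 in STET_S100 against STET; none of these passed after adjustment.

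STET_S100 against STET asks what amygdala stimulation at 100 Hz added to tetanization. At an unadjusted p under 0.05 there were 2 genes of 10, Htr1b and Htr4, against 3.16% of all genes. Groups did not overlap for 5 of 10, against 9.6% of all genes. Htr1a and Htr1b were lower in STET_S100, and Htr2a, Htr4 and Htr7 were higher. The median size was 0.14, against 0.06 over all genes, and all adjusted p-values were 1.00 (edgeR quasi-likelihood test).

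Htr1b had 7.63, 6.25 and 6.06 CPM in STET_S100, against 8.80, 9.07 and 7.70 CPM in STET, so all STET_S100 libraries were lower, with STET_S100 1 and STET 3 close together. The log2 fold change was -0.36 ± 0.13, with an unadjusted p of 0.0134. Without STET_S100 3 it was -0.29 with an unadjusted p of 0.0593 in that fit. Over the 7 libraries low in Fabp4, which leave out both STET_S100 1 and STET 3, it was -0.54. The oligodendrocyte list of 4 genes summed to 2242 to 2324 CPM in STET_S100, against 2380 to 2776 CPM in STET, also with no overlap, and its part in the Htr1b difference was not tested. Htr4 had 9.65, 9.17 and 9.38 CPM in STET_S100, against 6.65, 8.81 and 8.68 CPM in STET, with STET 1 below the others, and a log2 fold change of 0.23 ± 0.10. Without STET 1 it was 0.10. Htr7 had 9.41, 9.50 and 12.1 CPM in STET_S100, against 8.02, 9.34 and 8.09 CPM in STET, with STET 2 just under the lowest STET_S100 library, and a log2 fold change of 0.28 ± 0.14, and without STET_S100 3 it was 0.16. Htr6 had 5.72, 6.30 and 6.12 CPM in STET_S100, against 6.06, 4.67 and 4.71 CPM in STET. STET 1 lay among the STET_S100 libraries, and the log2 fold change was 0.23 ± 0.12, or 0.37 without STET 1. Htr2a and Htr1a separated by small margins, with log2 fold changes of 0.06 ± 0.13 and -0.07 ± 0.06. The comparison shares its STET_S100 libraries with the one against Control, so Htr1b and Htr4 standing on the same side in both is not independent evidence.

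STET_S200 against STET gave no receptor gene with an unadjusted p under 0.05, where 4.56% of all genes had one. Groups did not overlap for 1 of 10, against 12% of all genes. That gene was Htr1a, with 25.5, 26.0 and 26.5 CPM in STET_S200, against 25.1, 25.3 and 25.5 CPM in STET, a log2 fold change of 0.04 ± 0.06. The largest difference was that of Htr2a, at 0.22 ± 0.13, and without STET_S200 3, the library at 19.1 CPM, it was 0.09.

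STET_S200 against STET_S100 compares the groups of amygdala stimulation directly. No receptor gene had an unadjusted p under 0.05, where 5.2% of all genes had one, and Htr1a, 1 of 10, did not overlap, against 9.34%. The log2 fold changes ran from -0.19 ± 0.12 for Htr2c to 0.20 ± 0.13 for Htr1b. Without STET_S200 3 these values were -0.32 for Htr2c and 0.08 for Htr1b. The 95% intervals of these genes reached 0.723-fold and 1.39-fold, so larger differences between the groups of amygdala stimulation lay outside them. The Htr1b value of STET_S100 was thus not shown to be particular to that group.

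The average of STET, STET_S100 and STET_S200 against Control drew on all 12 libraries. Htr2a differed by -0.25 ± 0.11, the only one of 10 with an unadjusted p under 0.05, against 5.47% of all genes, and its adjusted p was 0.895 (edgeR quasi-likelihood test). Without Control 1 it was -0.11 with an unadjusted p of 0.321 in that fit. No receptor gene had all 9 stimulated libraries on one side of Control, where 0.99% of all genes did. The other log2 fold changes ran from -0.20 ± 0.10 for Htr1b to 0.17 ± 0.10 for Htr6.

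Htr2c was compared with Ttr, the transthyretin gene of choroid plexus epithelium, since both mark that tissue. Ttr had 254, 2243 and 434 CPM in STET, 1841, 2798 and 12.2 CPM in STET_S100, 5.14, 1.73 and 40.6 CPM in STET_S200, and 233, 1167 and 183 CPM in Control. Ttr thus spanned a 1615-fold range over libraries, and STET_S200 was low throughout. Htr2c had 79.8, 104 and 76.8 CPM in STET, 92.9, 97.4 and 95.7 CPM in STET_S100, 76.0, 77.0 and 98.3 CPM in STET_S200, and 83.2, 84.7 and 83.7 CPM in Control. Its range was 1.37-fold. In the 4 libraries with Ttr under 100 CPM, Htr2c ran from 76.0 to 98.3 CPM. It ran from 76.8 to 83.7 CPM in the 4 libraries between 100 and 1000 CPM of Ttr, and from 84.7 to 104 CPM in the 4 libraries above 1000 CPM. Htr2c was therefore as high as 95.7 and 98.3 CPM in STET_S100 3 and STET_S200 3, where Ttr was at 12.2 and 40.6 CPM.

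Across the 12 libraries the log2 levels of Htr2c and Ttr had a Pearson r of 0.441 (permutation p = 0.151, adjusted 0.71 over the 10 receptor genes) and a Spearman rho of 0.476 (permutation p = 0.122, adjusted 0.567), all two-sided. Without the 2 libraries farthest from the median of log2 Ttr, STET_S200 1 and STET_S200 2, r was 0.0634. Within the 7 libraries low in Fabp4 r was 0.505 (exact permutation p = 0.255, n = 7), and the other 5 were too few for a value. On the linear CPM scale, an alternative added after seeing the data, r was 0.602 with a permutation p of 0.0406. The 2 libraries farthest from the median on that scale were others, STET 2 and STET_S100 2, which had the most Ttr. Without them r was 0.224. The fitted line put Htr2c at 83.0 CPM with no Ttr and added 5.89 ± 2.47 CPM (SE) per 1000 CPM of Ttr. None of the 10 receptor genes passed for its relation to Ttr, and r for the other 9 lay between -0.445 for Htr5a and 0.276 for Htr1b.

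**Figure D4:**
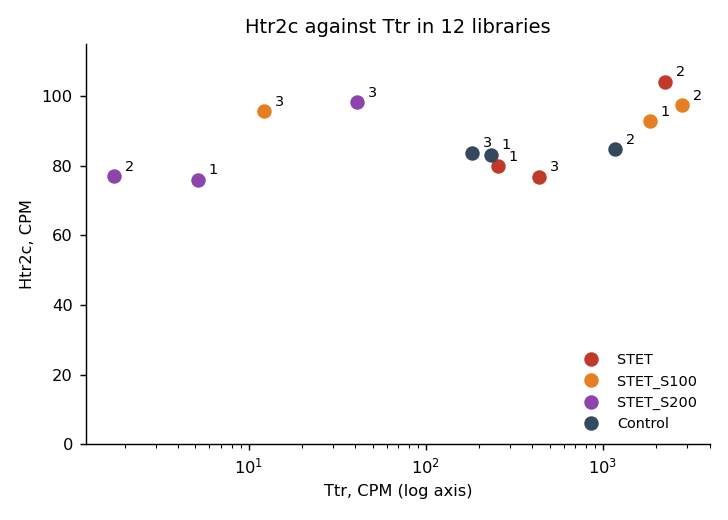
Htr2c CPM (linear axis from 0) against Ttr CPM (log axis) in the 12 libraries, numbered by replicate and coloured by group. Ttr spans 1615-fold while Htr2c stays between 76.0 and 104 CPM, and libraries with the least Ttr hold both low and high Htr2c.

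Every STET_S200 library had less Ttr than any STET or Control library, so content and STET_S200 cannot be told apart in comparisons with those groups. The STET_S100 libraries overlapped with them, since STET_S100 3 at 12.2 CPM lay below STET_S200 3 at 40.6 CPM. Ttr itself passed in no comparison, with a smallest adjusted p of 0.828 in STET_S200 against Control (edgeR quasi-likelihood test). With log2 Ttr as a covariate, the log2 fold change of Htr2c was 0.15 in STET_S200 against Control, where it was -0.00 without the covariate. In STET_S100 against Control it was 0.18 with the covariate and 0.18 without. In these bulk samples, fewer cells of a type and less RNA per cell cannot be told apart.

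The receptors' signalling partners were present throughout, and none was called in any comparison. Of 11 genes of Gi signalling and GIRK channels, all tested, the Gi/o subunit genes Gnao1 and Gnai1 averaged 710 and 261 CPM, and the GIRK subunit genes Kcnj3, Kcnj9 and Kcnj6 averaged 177, 89.0 and 32.8 CPM. Their log2 fold changes against Control lay between -0.14 and 0.15 over the 3 stimulated groups. Of the 9 Gq effectors, Gnaq averaged 302 CPM and Itpr1, the calcium release channel, 690 CPM. Prkca, a protein kinase C gene, had the widest value, 0.27 ± 0.11 in STET_S100 against Control, and did not pass. Of 14 Gs and cyclic AMP genes, Gnas averaged 1162 CPM and Adcy1 587 CPM, and log2 fold changes against Control lay between -0.17 and 0.09.

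Of 17 genes for partners, trafficking and desensitization, S100a10, which encodes the p11 partner of Htr1b and Htr4, averaged 28.1 CPM. Its log2 fold change was 0.16 ± 0.07 in STET against Control. The highest value of any of the 17 genes was 0.07 in STET_S100 and 0.08 in STET_S200, each against Control. Adarb1, which encodes an enzyme that edits Htr2c mRNA, averaged 127 CPM and differed by -0.09 ± 0.05 in STET, 0.01 ± 0.05 in STET_S100 and -0.03 ± 0.05 in STET_S200, all against Control. Editing itself cannot be read from gene counts. Of 10 genes for serotonin synthesis, transport and breakdown, 7 passed the filter on low counts. Maoa and Maob, the monoamine oxidases, averaged 43.4 and 30.2 CPM. The uptake transporter Slc29a4 averaged 20.3 CPM in STET, 25.8 CPM in STET_S100, 14.6 CPM in STET_S200 and 17.7 CPM in Control. Its log2 fold change against Control was 0.55 ± 0.42 in STET_S100 and -0.27 ± 0.43 in STET_S200, and neither passed. Slc29a4 is also expressed in choroid plexus, whose list was low in all STET_S200 libraries, and the part of that tissue here was not tested.

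The receptor levels were also set beside the mean log2 levels of 11 marker lists, which gave 110 relations over the 12 libraries. None passed by Pearson r after adjustment, and 1 passed by Spearman rho. That relation was Htr3a against the oligodendrocyte list, with rho = -0.881 (two-sided permutation p = 0.00035, adjusted 0.0385) and r = -0.751 (permutation p = 0.0059, adjusted 0.163). Without the 2 libraries farthest in the list r was -0.682, and within the 7 libraries low in Fabp4 it was -0.877. Htr3a also had r = 0.710 with the interneuron list (permutation p = 0.0102, adjusted 0.163) and 0.783 without the 2 farthest libraries. Htr1b had r = 0.750 with the list of subiculum and cortex (permutation p = 0.00286, adjusted 0.163). With the oligodendrocyte list it had r = 0.718 (permutation p = 0.00899, adjusted 0.163) and rho = 0.776 (permutation p = 0.00418, adjusted 0.0968). Htr2a had r = -0.744 with the endothelium list (permutation p = 0.00848, adjusted 0.163) and -0.729 with the CA3 list (permutation p = 0.00643, adjusted 0.163). By rank both were weaker, with rho = -0.504 for endothelium (permutation p = 0.0984, adjusted 0.5665) and -0.622 for CA3 (permutation p = 0.0339, adjusted 0.340). Htr2c had rho = 0.776 with the CA2 list (permutation p = 0.0042, adjusted 0.0968) and r = 0.670 (permutation p = 0.01035, adjusted 0.163). For Htr4 and the list of subiculum and cortex rho was -0.804 (permutation p = 0.00269, adjusted 0.0968) and r was -0.692 (permutation p = 0.0213, adjusted 0.259). The part of these lists in the group differences was not tested. Among the 45 pairs of receptor genes none passed, and the highest r was 0.635, for Htr2c and Htr7 (permutation p = 0.0277, adjusted 0.482).

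The genes whose log2 levels followed a receptor most closely over the 12 libraries were taken from 14871 tested genes and are given as a description. For Htr1a they were Dmac2, Nrgn and A430108G06Rik, with r of 0.888, 0.885 and 0.873. For Htr2a they were Vopp1, Lrrc8c and Gabrb2, with r of 0.904, 0.891 and 0.886. For Htr2c they were Flrt2, Eps8l1 and Lgi3, with r of 0.895, 0.834 and 0.833. For Htr3a they included Gm16701 and Dbx2, with r of 0.904 and 0.894. All values of r rest on the same 12 libraries, and the highest of so many genes are large by selection.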

How the data were processed

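The authors deposited read counts per Ensembl gene ID, whole numbers with no scaling, in 1 table with a column per sample. Per the submitters' processing notes, the tools were HTSeq 0.11.2, STAR 2.7.1a, Trimmomatic 0.39, limma and R 4.0.2. Not given in the sources used here were genome build, annotation and strand setting, and reads of overlapping genes may be misassigned. Per the labels' protocols the libraries were directional, poly(A)-selected and sequenced as paired-end reads of 150 bp. Symbols matched 55144 of the 55471 IDs, and GENCODE M21, used for exon lengths, held 55230.

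Library sizes were adjusted with TMM (trimmed mean of M values), and all genes were tested in 1 fit of all 12 libraries with edgeR 4.0.16 in R 4.3.3 (quasi-likelihood, robust, filterByExpr with a minimum count of 10 and minimum total of 15). p-values were adjusted by Benjamini-Hochberg over all 19492 genes per comparison. CPM uses TMM-adjusted totals, and RPKM divides it by the union of exons. Replicates differed by a chi-square per degree of freedom of at least 5.07, so none was a repeated library; the labels name no separate animals per replicate, so p-values measure the spread between these pools. Correlations used log2 CPM with a prior count of 2 and 100000 permutations, or all of them for 7 libraries. Alternatives used DESeq2 1.42.0, limma 3.58.1 (voom), other scalings, filters and samples. The fit was tested on simulated data. Counting errors cover sampling only. The receptor genes and lists were chosen with earlier results of these data known. Named were all 10 genes, Ttr, Arc, the 3 genes nearest to each of 4 receptors, and up to 6 genes per list. A gene nearest to Htr3a and an upstream stretch are not reported here.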

Additional observations from a re-analysis of the deposited data

How the results depend on the processing

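Over 22 alternative settings the 10 receptor genes gave 1530 fold changes in 7 comparisons, of which 0 passed and 54 had the opposite sign to the reported value. The smallest adjusted p was 0.0691, for Htr2a in STET against Control with no filter on low counts. The count of all genes called, 0 throughout as reported, did move. With no filter it was 16 for STET against Control, 42 for STET_S100 against Control, 69 for STET_S200 against Control, 22 for STET_S100 against STET, 34 for STET_S200 against STET, 98 for STET_S200 against STET_S100 and 52 for the average of all stimulated groups against Control. With DESeq2 it was 1, 3, 4, 1, 16, 5 and 7 in the same order. A fit of only the groups compared called 1 gene for STET_S100 against Control, and the 7 libraries low in Fabp4 called 4 for the average, where the lone STET_S200 library was assumed to vary like the others. Leaving out 1 library at a time gave 0 to 1 for STET_S100 against Control, 0 to 2 for STET_S200 against Control, 0 to 1 for STET_S100 against STET, 0 to 8 for STET_S200 against STET_S100 (8 without STET_S100 3) and 0 to 1 for the average. For these the cause was not tested. The linear scale for Htr2c and Ttr gave r = 0.602, and leaving out 1 library at a time on the log2 scale gave r from 0.315 to 0.584.

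Whether equal replicate numbers mark the same mice is not given in the labels, and the data did not settle it. Over 18 pairs of equal number the correlation of deviations ran from -0.359 to 0.482, 8 were above 0.1, and 7 of 12 libraries correlated best with their own number. With the replicate number as a block, 0 receptor genes and 0 genes in all were called in each comparison. For the average against Control a fit of only the groups compared is the fit of all libraries and was not run. Depth limits Htr1d most among the 10, at 878 reads in all 12 libraries.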
